A study of Rattus norvegicus with 5 samples.

Results

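The receptors described here are 10 genes of the P2X and P2Y families, which sense extracellular ATP and related nucleotides: P2rx2, P2rx3, P2rx4, P2rx6, P2rx7, P2ry1, P2ry6, P2ry12, P2ry13 and P2ry14. They were taken by gene symbol from a table of 17321 gene rows, and all 10 were present and passed the filter on low counts, which left 13478 genes tested. Sprague Dawley rats had CCI surgery (3 libraries) or SHAM surgery (2 libraries), and lumbar dorsal horn (L4-L6) was collected on day 9. The labels do not spell the letters out. CCI commonly stands for chronic constriction injury, in which loose ties around a nerve of the leg make the animal oversensitive to touch and heat, and SHAM for surgery that spares the nerve. The series centres on the orphan receptor GPR160. The labels give no age or genotype, nor whether libraries are from different animals, so the p-values here cover the spread among libraries and no more.

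P2X receptors are cation channels opened by ATP, whereas P2Y receptors are G protein-coupled receptors for ATP, ADP, UTP, UDP or UDP-sugars. In the dorsal horn, P2X channels of sensory endings and neurons carry fast ATP signals, and microglia, the resident immune cells of the spinal cord, carry several P2X and P2Y receptors through which they detect ATP from injured cells. P2X4 and P2X7 in microglia are the members best known from work on neuropathic pain in rodents.

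Total estimated counts ran from 20724548 to 23673198 in the CCI libraries and were 21890192 and 20053353 in the SHAM libraries. The ribosomal share of counts was 16.0% in CCI 3 and between 2.18% and 2.71% elsewhere. The libraries CCI 2 and CCI 3 stood apart in peripheral tissue markers. Summed over 8 Schwann cell markers, levels were 84.9, 276 and 574 CPM (counts scaled to library size) in CCI 1, CCI 2 and CCI 3, against 65.5 and 83.7 CPM in SHAM 1 and SHAM 2. Over 6 fibroblast markers the sums were 76.7, 746 and 631 CPM in CCI, against 79.8 and 123 CPM in SHAM. Neuronal markers were present in every library, at 2985 to 3294 summed CPM in CCI and at 3605 and 3881 summed CPM in SHAM.

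Of the 10 receptors, 3 rose after CCI and none fell, a gene being called where its adjusted p was no more than 0.05 and its fold no less than 1.5. They were P2ry6, P2ry12 and P2ry13, all of the P2Y family, and none of the 5 P2X genes passed. Among all tested genes 2.59% were called higher and 0.26% lower. The median log2 fold change was 0.98 over the 5 P2Y genes, 0.09 over the 5 P2X genes and 0.01 over all tested genes. In 5 receptors every CCI library lay above both SHAM libraries, in 1 (P2rx6) every CCI library lay below, and in 4 the groups overlapped, where 18.6% and 18.1% of all tested genes separated upward and downward in this way.

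**Figure D1:**
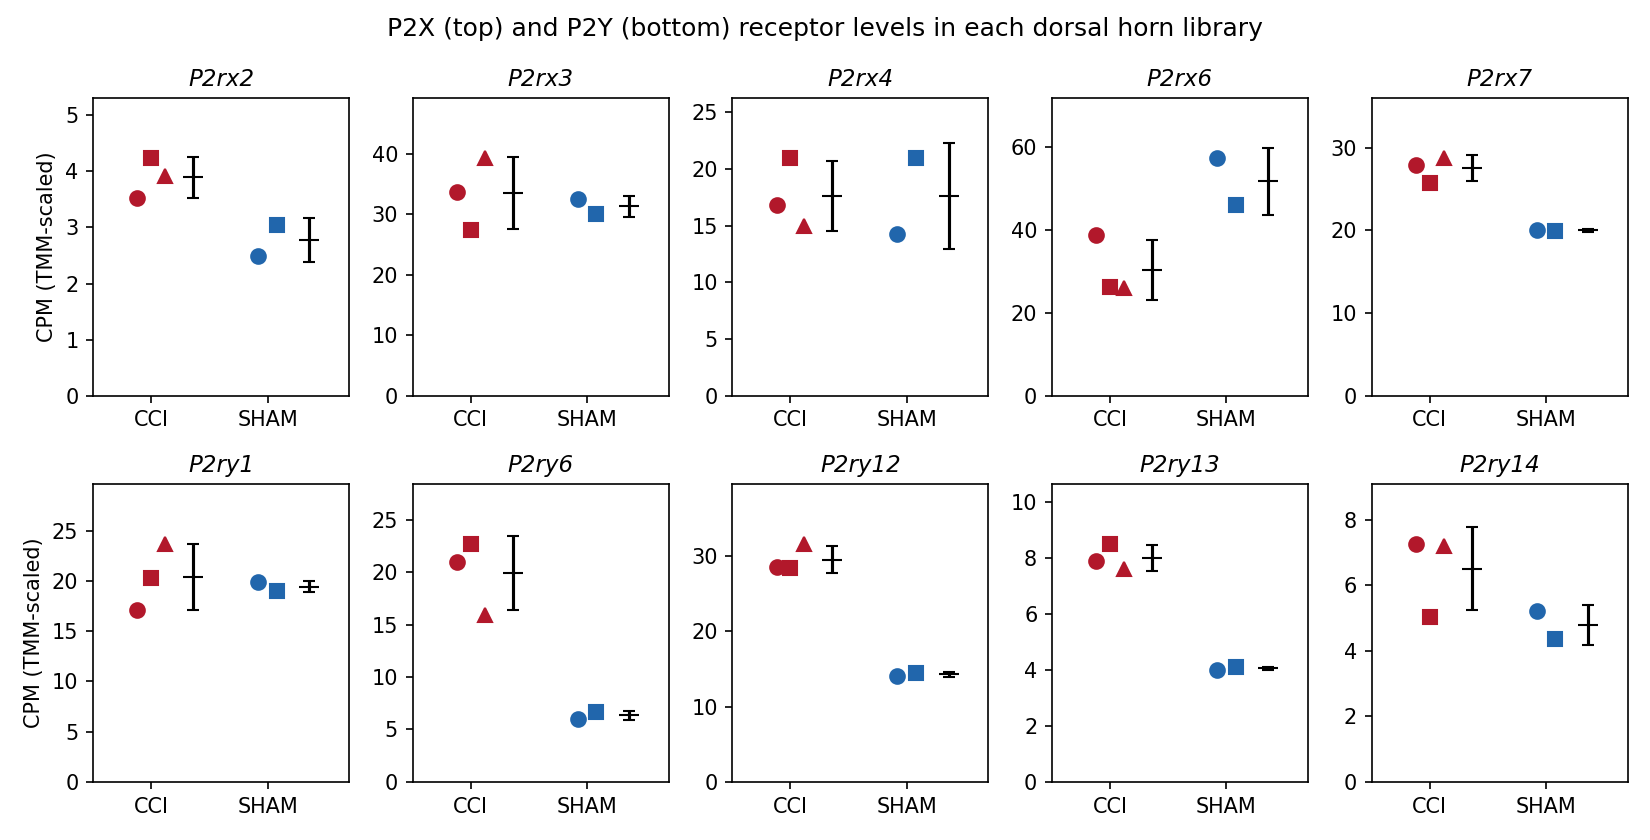
Level of each receptor gene (CPM, TMM-scaled, linear axis from 0) in the CCI libraries (red; circle, square and triangle for CCI 1, 2 and 3) and the SHAM libraries (blue; circle and square for SHAM 1 and 2), with the group mean ± SD in black. P2ry6, P2ry12 and P2ry13 show wide gaps between the groups, P2rx6 lies lower in CCI, and P2rx4 spans 15.0 to 21.0 CPM in CCI and 14.3 to 20.9 CPM in SHAM.

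P2ry12 encodes the Gi-coupled ADP receptor through which microglia extend their processes towards injured cells, and which platelets use for aggregation. Its level was 28.6, 28.5 and 31.7 CPM in CCI 1 to 3, against 14.05 and 14.54 CPM in SHAM 1 and 2. The lowest CCI library was well above the higher SHAM library, and libraries within each group lay close together. The means were 29.6 ± 1.82 CPM in CCI (SD, n = 3) and 14.3 ± 0.349 CPM in SHAM (SD, n = 2). This was a 2.07-fold increase (log2 fold change 1.05, SE 0.12, 95% interval 0.77 to 1.32, adjusted p = 0.00229 by edgeR's quasi-likelihood test). Its estimated counts were whole numbers in every library. The call was lost without SHAM 1 (adjusted p = 0.0688) or without SHAM 2 (adjusted p = 0.0534), with log2 fold changes of 1.02 and 1.06.

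P2ry13, the neighbour of P2ry12 on rat chromosome 2, encodes another Gi-coupled ADP receptor of microglia. It stood at 7.87, 8.50 and 7.58 CPM in CCI 1 to 3, against 4.00 and 4.10 CPM in SHAM 1 and 2. The groups were separated, with the means at 7.98 ± 0.467 CPM in CCI (SD, n = 3) and 4.05 ± 0.0686 CPM in SHAM (SD, n = 2). The fold was 1.97 (log2 fold change 0.98, SE 0.19, adjusted p = 0.0266). This was the least secure of the 3 calls. It was lost without CCI 3 (adjusted p = 0.0524), with SHAM 1 left out (0.292), with SHAM 2 left out (0.22), when the Schwann cell level was a covariate (0.171) and with CCI 2 and CCI 3 both left out (0.0718), while the log2 fold change stayed between 0.93 and 1.01 over all 15 alternatives.

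P2ry14, the Gi-coupled receptor for UDP-glucose and the third receptor gene of this stretch of chromosome 2, did not pass. Its level was 7.27, 5.04 and 7.21 CPM in CCI 1 to 3, against 5.23 and 4.35 CPM in SHAM 1 and 2. CCI 2 lay among the SHAM libraries, so the groups overlapped. The log2 fold change was 0.44 (SE 0.23, 95% interval -0.09 to 0.97, adjusted p = 0.403).

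P2ry6 encodes a Gq-coupled receptor for UDP, known in microglia for triggering phagocytosis, and it had the largest fold of the 10. Its estimated counts were 454, 572 and 301 in CCI 1 to 3, against 133 and 133 in SHAM 1 and 2. On the CPM scale this was 21.0, 22.7 and 16.0 in CCI, against 6.05 and 6.65 in SHAM. CCI 3 was the lowest of the CCI libraries and still more than double either SHAM library. The means were 19.9 ± 3.51 CPM in CCI (SD, n = 3) and 6.35 ± 0.424 CPM in SHAM (SD, n = 2), a 3.14-fold increase (log2 fold change 1.65, SE 0.19, 95% interval 1.23 to 2.07, adjusted p = 0.00212). Its counts were fractional, so some reads fitted sequence outside this gene as well, and the level is uncertain to that extent. Which gene shares them is not recorded. P2ry2, its neighbour in the GRCr8 gene table, had fractional counts too, and whether the pair share reads was not tested. Without SHAM 1 the adjusted p was 0.0721 and without SHAM 2 it was 0.0507, with log2 fold changes of 1.58 and 1.71.

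P2ry1, the Gq-coupled ADP receptor found on neurons, astrocytes and platelets, overlapped between the groups. It stood at 17.1, 20.3 and 23.7 CPM in CCI 1 to 3, against 19.9 and 19.0 CPM in SHAM 1 and 2. Both SHAM libraries lay inside the CCI range. The log2 fold change was 0.07 (SE 0.15, 95% interval -0.28 to 0.41, adjusted p = 0.867).

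A two-sided exact permutation test of log2(CPM + 1) gave p = 0.1 for each of P2ry6, P2ry12 and P2ry13, and 10 splits of 5 libraries can give none smaller.

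**Figure D2:**
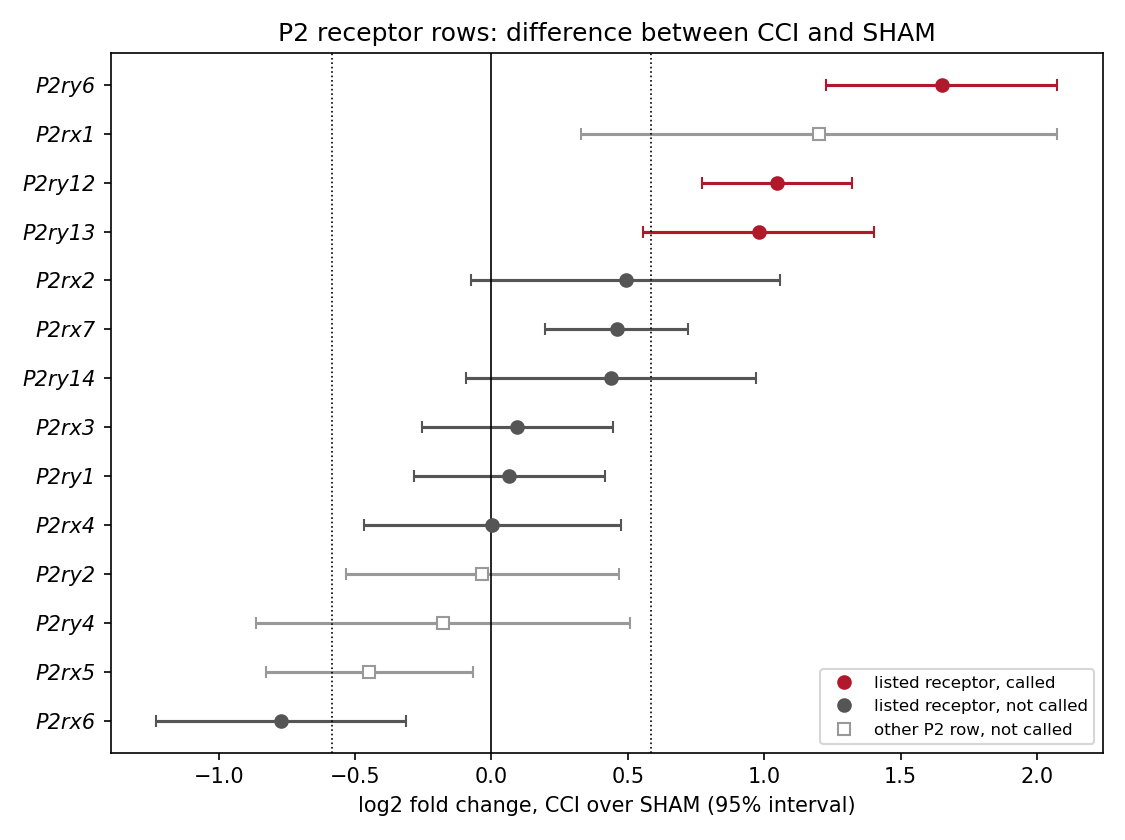
Log2 fold change of CCI over SHAM with its 95% interval for the 10 receptors (filled circles, red where called) and for 4 other tested rows of the families (open grey squares), ordered by size, with dotted lines at a 1.5-fold change in either direction. P2ry6, P2ry12 and P2ry13 lie to the right at 1.65, 1.05 and 0.98, P2rx4 is centred on 0.00 and P2rx6 is the lowest at -0.77.

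P2rx4, the ATP-gated channel of spinal microglia that is linked in rodents to touch-evoked pain after nerve injury, had the same mean in both groups. Its level was 16.8, 21.0 and 15.0 CPM in CCI 1 to 3, against 14.3 and 20.9 CPM in SHAM 1 and 2. The ranges almost coincided, and the SHAM libraries differed from each other by more than any pair of CCI libraries. The means were 17.6 ± 3.09 CPM in CCI (SD, n = 3) and 17.6 ± 4.71 CPM in SHAM (SD, n = 2). The fold was 1.0 (log2 fold change 0.00, SE 0.20, adjusted p = 0.994), with a 95% interval from 0.723-fold to 1.39-fold. Over 15 alternatives the log2 fold change ran from -0.25 without SHAM 1 to 0.30 without SHAM 2, and no alternative called the gene.

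P2rx7, next to P2rx4 on chromosome 12, encodes the channel that needs high ATP and drives release of interleukin-1 beta from microglia. It stood at 27.9, 25.8 and 28.8 CPM in CCI 1 to 3, against 20.1 and 19.9 CPM in SHAM 1 and 2. Every CCI library was above both SHAM libraries. The means were 27.5 ± 1.56 CPM in CCI (SD, n = 3) and 20.0 ± 0.145 CPM in SHAM (SD, n = 2), a 1.37-fold difference (log2 fold change 0.46, SE 0.12, 95% interval 0.20 to 0.72). The adjusted p was 0.0792, and both this and the fold missed the thresholds. With DESeq2 the adjusted p was 0.0352, and the fold stayed under 1.5.

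Because P2rx4 was picked for its lack of change, its contrast with the other receptors is given as a description, with no test. P2ry6 had 0.959, 0.829 and 0.821 times the TPM (a level that takes transcript length into account) of P2rx4 in CCI 1 to 3, against 0.324 and 0.245 times in SHAM 1 and 2. For P2ry12 the ratio was 2.92, 2.35 and 3.63 in CCI, against 1.705 and 1.19 in SHAM. The P2ry13 ratio was 1.05, 0.923 and 1.14 in CCI and 0.639 and 0.44 in SHAM. In these 3 receptors the ratios of the groups did not overlap. Nor did they for P2rx2, which was not called, at 0.230, 0.223 and 0.289 in CCI and 0.193 and 0.161 in SHAM. The P2rx7 ratio did overlap, at 0.886, 0.653 and 1.03 in CCI and 0.750 and 0.508 in SHAM. Those of P2rx3, P2rx6, P2ry1 and P2ry14 overlapped as well. How many of all tested genes separate in this ratio was not counted. In plain CPM 18.6% of them separated upward and 18.1% downward.

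Promoter sequence is shown for the receptors that hold the core letters bound by PU.1, a myeloid transcription factor, because its gene Spi1 rose (12.6, 12.3 and 10.9 CPM in CCI 1 to 3, against 3.27 and 3.75 CPM in SHAM 1 and 2; log2 fold change 1.76, adjusted p = 0.00146). Windows from 250 bases before to 50 bases after a gene start, from RefSeq on GRCr8, were found for 7 of the 10 receptors (8 windows, P2rx3 having 2), and not for P2rx2, P2ry6 and P2ry12. The letters GAGGAA, searched on both strands, occurred in 3 of the 8 windows and in 27.6% of all 33469 windows. The matches lay in P2rx4 (first base 235 bases before the start), P2rx7 (198 before) and, on the opposite strand, P2rx6 (92 before). Each line gives 30 bases on the gene's strand, 5′ to 3′, with the match in capitals.
P2rx4, chr12:39523307-39523336, minus strand: ctttgcaaccggGAGGAAcccatctgcctc
P2rx7, chr12:39595103-39595132, minus strand: tcgaaaaggcgaGAGGAAaggggtggggga
P2rx6, chr11:96954278-96954307, minus strand: aggacaggtctaTTCCTCtatatttgcata
The paired letters bound by interferon regulatory factors, GAAA, any 2 bases and GAAA, searched on both strands, occurred in none of the 8 windows and in 3.92% of all windows, so no overlap of the motifs arose there. GC content was 66.7% in the P2rx4 window, 54.7% in that of P2rx7 and 40.7% in that of P2ry13, beside a median of 51.7%. A match of letters is a description of the window and not evidence of binding.

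The remaining P2X genes are best known from neurons. P2rx6 encodes a subunit that assembles with other P2X subunits and is a poor channel by itself. It was 38.7, 26.2 and 25.9 CPM in CCI 1 to 3, against 57.4 and 46.0 CPM in SHAM 1 and 2. All CCI libraries were below both SHAM libraries, and CCI 1 lay nearest to them. The means were 30.3 ± 7.32 CPM in CCI (SD, n = 3) and 51.7 ± 8.06 CPM in SHAM (SD, n = 2), with a log2 fold change of -0.77 (SE 0.20, 95% interval -1.23 to -0.31). The adjusted p of 0.0996 did not pass. The gene was called lower without CCI 1 (-0.99, adjusted p = 0.00438), by the likelihood ratio test (0.00767) and by DESeq2 (0.00723). With the Schwann cell level as a covariate it was -0.40 (adjusted p = 0.621). Its counts were fractional, so the level is uncertain.

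P2rx3, the channel of pain-sensing ganglion neurons, was 33.7, 27.4 and 39.4 CPM in CCI 1 to 3, against 32.6 and 30.1 CPM in SHAM 1 and 2. The SHAM values lay inside the CCI range, and the log2 fold change was 0.09 (SE 0.15, 95% interval -0.26 to 0.44, adjusted p = 0.794). Of 7 markers of ganglion neurons 6 were in the table, 4 of these were tested and none was called, and they summed to 342, 88.6 and 205 CPM in CCI 1 to 3, against 415 and 322 CPM in SHAM 1 and 2. Prph made up most of that sum, at 235, 56.9 and 131 CPM in CCI, against 302 and 238 CPM in SHAM. Calca was 81.2, 10.2 and 47.7 CPM in CCI, against 85.8 and 67.5 CPM in SHAM. Avil had a mean of 21.6 CPM in CCI and 17.8 CPM in SHAM. Mrgprd had no count in any library and Scn10a, a sodium channel gene of the same neurons, was 0.388 ± 0.0814 CPM in CCI (SD, n = 3) and 0.434 ± 0.164 CPM in SHAM (SD, n = 2). P2rx3 counts were fractional, and in the GRCr8 gene table the gene overlaps Ssrp1, a chromatin gene with 1487 to 2004 counts per library. Whether reads of another row enter the P2rx3 level was not tested. In the same gene table P2rx2, P2rx4 and P2rx6 overlap Lrcol1, Camkk2 and Lrrc74b. Counts were whole numbers for P2rx2 and P2rx4 and fractional for P2rx6.

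P2rx2, whose subunit joins that of P2rx3 in sensory neurons, was the lowest of the 10. It had 76, 107 and 74 counts in CCI 1 to 3, against 55 and 61 counts in SHAM 1 and 2. On the CPM scale every CCI library (3.52 to 4.25 CPM) was above both SHAM libraries (2.50 and 3.05 CPM). The log2 fold change of 0.49 (SE 0.25, 95% interval -0.07 to 1.06, adjusted p = 0.378) did not pass.

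Per length, P2ry12 was the most abundant receptor in CCI, at 33.8 ± 2.07 TPM (SD, n = 3), and P2rx6 came next at 16.9 ± 3.93 TPM. P2ry13, P2rx4, P2rx3, P2ry6, P2rx7 and P2ry1 followed, between 12 and 8.08 TPM, and each of these neighbours in the order overlapped the next. P2ry14 (5.35 ± 1.01 TPM) and P2rx2 (2.85 ± 0.290 TPM) were lowest, with no overlap between them. In SHAM P2rx6 came first at 28.3 ± 4.54 TPM (SD, n = 2) and P2ry12 next at 16.1 ± 0.206 TPM, while P2ry6 at 3.17 ± 0.210 TPM was ahead of P2rx2 alone. P2rx4 and P2rx3 were the one pair of neighbours in the SHAM order whose libraries overlapped.

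The summed level of the 10 receptors was 123, 120 and 122 TPM in CCI 1 to 3, against 97.3 and 93.9 TPM in SHAM 1 and 2. P2ry12 made up 26.2%, 27.5% and 29.7% of that sum in CCI, against 16.3% and 17.3% in SHAM. P2rx6 made up 17.4%, 12.3% and 11.9% in CCI and 32.4% and 26.7% in SHAM. The leading receptor of the pool thus differed between the groups in every library. P2rx4 held 8.17% to 11.7% in CCI and 9.59% and 14.5% in SHAM, with overlap.

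**Figure D3:**
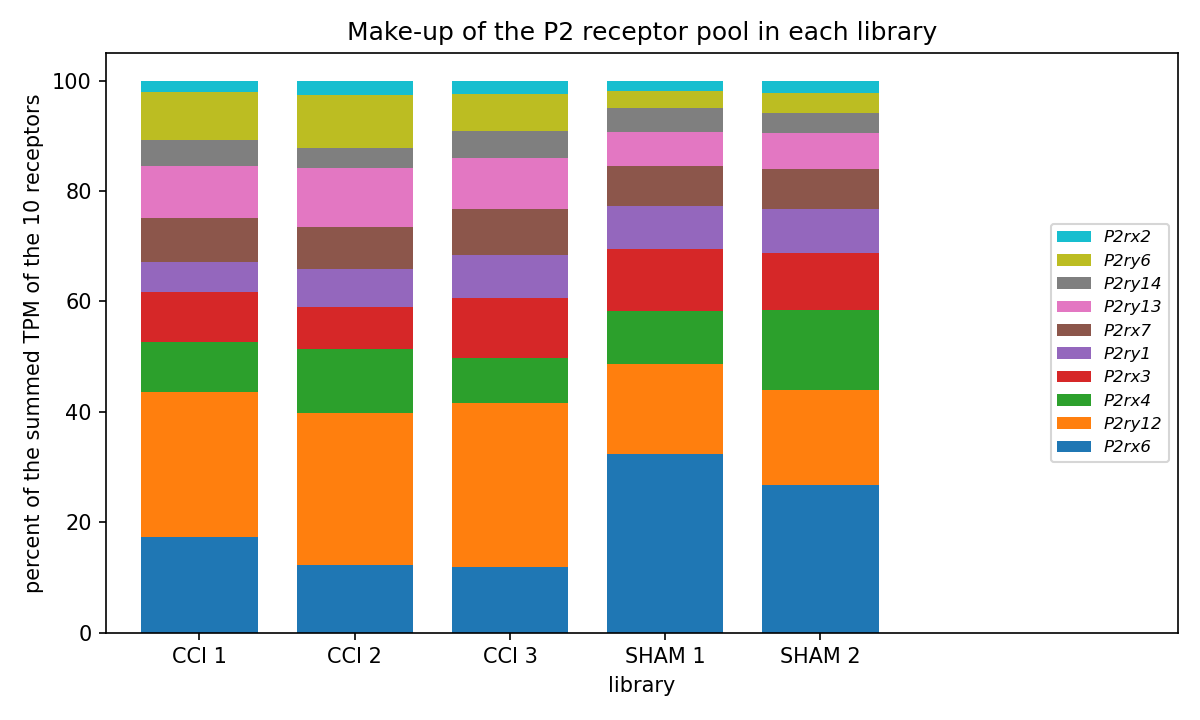
Share of each receptor in the summed TPM of the 10 receptors (percent, stacked from 0 to 100) in the 3 CCI libraries and the 2 SHAM libraries. The P2ry12 block is the widest in each CCI library (26.2% to 29.7%) and the P2rx6 block is the widest in each SHAM library (32.4% and 26.7%).

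Microglial markers were examined next. Of 13 markers 8 rose and none fell, with a median log2 fold change of 1.20, and their summed level was 866, 990 and 888 CPM in CCI 1 to 3, against 390 and 431 CPM in SHAM 1 and 2. Over all tested genes 2.59% were called higher and 0.26% lower. Csf1r, the growth factor receptor that microglia need to survive, rose by 1.64 on the log2 scale, Itgam, an integrin chain, by 1.82 and Cx3cr1, the fractalkine receptor, by 1.21, while Sall1 (0.44, adjusted p = 0.116) and Tmem119 (0.23, adjusted p = 0.838) did not pass. In bulk tissue, more microglia and more RNA per microglial cell cannot be told apart. Whether the rise of the 3 receptors goes with that of the markers was not tested.

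Relative to the mean log2 TPM of those 13 markers in the same library, P2ry12 stood at 0.0047, -0.32 and 0.0069 in CCI 1 to 3, against 0.11 and -0.12 in SHAM 1 and 2. Its groups overlapped, with a CCI minus SHAM difference of -0.10. P2ry13 was likewise close, with a difference of -0.17. P2ry6 was the one receptor that was higher relative to the markers, at -1.60, -1.82 and -2.14 in CCI, against -2.29 and -2.41 in SHAM. The marker mean itself was 1.17 higher in CCI, so an unchanged receptor lies lower relative to it by about that much. P2rx4, picked for its lack of change, was lower relative to the markers, at -1.54, -1.55 and -1.85 in CCI, against -0.66 and -0.38 in SHAM, a difference of -1.13. The other receptors were lower relative to the markers as well, with differences of -1.93 for P2rx6, -1.09 for P2ry1, -1.06 for P2rx3, -0.71 for P2ry14, -0.68 for P2rx7 and -0.65 for P2rx2. These values are descriptions, since both the receptors and the markers were chosen with earlier results known.

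**Figure D4:**
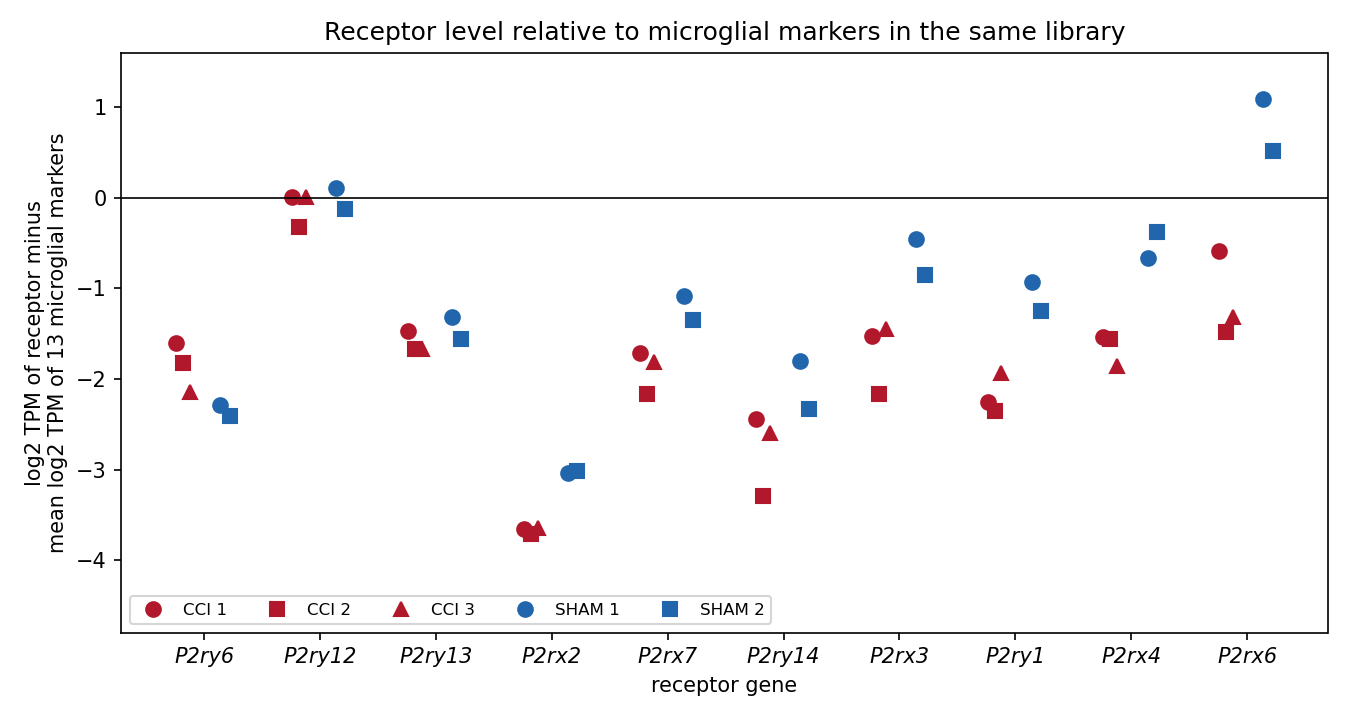
Receptor level relative to microglial markers: log2 TPM of each receptor minus the mean log2 TPM of 13 markers in the same library, for CCI (red) and SHAM (blue) libraries, with receptors ordered by the CCI minus SHAM difference. P2ry6 lies higher in CCI than in SHAM, P2ry12 overlaps around 0, and P2rx4 and P2rx6 lie lower in CCI, by 1.13 and 1.93 on the log2 scale. The marker mean itself was 1.17 higher in CCI.

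Other cells known to carry these receptors were also examined. Markers of border macrophages, 6 in number, summed to 74.9, 107 and 132 CPM in CCI 1 to 3, against 82.3 and 78.9 CPM in SHAM 1 and 2, and none was called. Siglec1 held most of that sum, at 51.9, 61.4 and 75.6 CPM in CCI, against 55.5 and 49.1 CPM in SHAM. Mrc1 was 5.74, 20.2 and 21.6 CPM in CCI, against 3.64 and 6.40 CPM in SHAM. Ms4a7 had 8, 42 and 19 counts in CCI and no count in SHAM. Lyve1 was 13.8, 15.7 and 24.7 CPM in CCI, against 20.0 and 18.7 CPM in SHAM (log2 fold change -0.10, adjusted p = 0.865). Its groups overlapped. Platelet markers were near 0: the 4 in the table summed to 0.509 to 1.01 CPM in CCI and to 0.227 and 0.550 CPM in SHAM, and Gp1bb had no count. The 5 markers of T cells and neutrophils summed to 0.139, 3.37 and 1.22 CPM in CCI and to 0.273 and 0.20 CPM in SHAM. The log2 fold change of P2ry12 was 0.99 with CCI 2 and CCI 3 both left out (adjusted p = 0.0043) and that of P2ry6 was 1.71 (adjusted p = 0.000224), while P2ry13 lost its call (0.95, adjusted p = 0.0718). That fit was added after seeing the data, holds 1 CCI library and takes its spread from SHAM alone. The part of Schwann cell and fibroblast RNA in these results was not tested further.

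The other rows of the families gave no call among 4 tested genes. P2rx1, a channel of platelets and smooth muscle, was 1.57, 1.51 and 1.22 CPM in CCI 1 to 3, against 0.50 and 0.749 CPM in SHAM 1 and 2 (log2 fold change 1.20, SE 0.39, adjusted p = 0.168). It rests on 34, 38 and 23 counts in CCI and on 11 and 15 counts in SHAM. P2rx5 had a log2 difference of -0.45 (SE 0.17, adjusted p = 0.228), the nucleotide receptor gene P2ry2 of -0.03 (adjusted p = 0.956) and P2ry4, a receptor for UTP, of -0.18 (adjusted p = 0.803). P2ry10, a lymphocyte receptor of lysophosphatidylserine, was too low to test, with 1, 56 and 9 counts in CCI 1 to 3 and no count in either SHAM library.

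Genes that act with these receptors were then examined as lists. Beside each list stand all tested genes, with 2.59% called higher, 0.26% called lower and a median log2 fold change of 0.01. Among regulators of P2X4 and its BDNF route, 3 of 9 rose and none fell (median log2 fold change 0.30). Irf8 and Irf5, which in mouse microglia drive expression of P2X4 after nerve injury, stood at 20.6, 32.6 and 18.6 CPM and at 15.6, 21.8 and 19.7 CPM in CCI 1 to 3, against 4.18 and 4.45 CPM and 7.36 and 7.74 CPM in SHAM 1 and 2. Their log2 fold changes were 2.47 (SE 0.28, adjusted p = 0.00357) and 1.33 (SE 0.18, adjusted p = 0.00431). The kinase gene Lyn, placed upstream of P2X4 in rodent microglia, rose by 1.57 (SE 0.17, adjusted p = 0.00163), with fractional counts. P2rx4 itself had a log2 fold change of 0.00, with an interval from 0.723-fold to 1.39-fold. It was picked for its lack of change, so its value beside these 3 genes is a description. Whether their rise bears on P2rx4 was not tested. The other 6 genes of the list were not called, among them Fn1 (log2 fold change 1.13, adjusted p = 0.294) and Itgb1 (0.18, adjusted p = 0.409). Bdnf, the growth factor released by microglia through P2X4, was 0.30 (adjusted p = 0.463) and Slc12a5, the neuronal chloride exporter that it acts on, was -0.02 (adjusted p = 0.966).

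In the list of P2X7 and interleukin-1 release, 2 of 8 rose and none fell (median 1.07). Nlrp3, the inflammasome sensor, rose by 1.66 (SE 0.22, adjusted p = 0.00405) and its adaptor gene Pycard by 1.98 (SE 0.33, adjusted p = 0.0196). Casp1, the protease that cuts interleukin-1 beta, was 5.0, 9.85 and 4.61 CPM in CCI 1 to 3, against 2.27 and 2.45 CPM in SHAM 1 and 2, with an adjusted p of 0.091. Il1b itself rests on 21, 67 and 18 counts in CCI and on 8 and 2 counts in SHAM (adjusted p = 0.109). DESeq2 and edgeR's likelihood ratio test each called 5 of these 8 genes higher.

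Of 9 tested genes of the Gi route used by the receptors for ADP and UDP-glucose, 2 rose and none fell (median 0.28). Kcnk13, a potassium channel gene whose product is potentiated by P2Y12 in microglia, rose by 1.13 (SE 0.24, adjusted p = 0.0393) and Pik3r5, a regulatory subunit of PI3-kinase gamma, by 1.49 (SE 0.23, adjusted p = 0.0101). In the Gq route of P2Y1 and P2Y6, 2 of 11 rose and none fell (median 0.10), and these were Gna15 (1.69, SE 0.20, adjusted p = 0.00267), a G protein alpha subunit of blood cells, and Plcb2 (1.0, SE 0.21, adjusted p = 0.0364), a phospholipase C. The widely expressed Gnaq (-0.01) and Gna11 (0.01) did not pass. No gene of the Gi, Gq, P2X4 or P2X7 lists was called without SHAM 1 or without SHAM 2.

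None of 9 tested ATP release genes was called (median 0.27). The likelihood ratio test, DESeq2 and the fit without CCI 1 each called 1 gene of this list higher. Gjb6, a connexin gene of astrocytes, was 52.1, 51.1 and 48.2 CPM in CCI 1 to 3, against 67.9 and 72.6 CPM in SHAM 1 and 2, and passed the adjusted p (0.0376) but not the fold (log2 fold change -0.48, SE 0.10). Calhm2, a channel gene, was 1.15 (SE 0.30, adjusted p = 0.092). None of 8 tested genes of extracellular nucleotide breakdown was called either (median 0.34). DESeq2 and the fit without CCI 1 each called 1 gene of that list higher. Entpd2, an ATP-splitting enzyme, was 0.43 (SE 0.11, adjusted p = 0.091) and Entpd3 was -0.40 (SE 0.13, adjusted p = 0.174). Entpd1, the enzyme that microglia carry as CD39, was 34.3, 82.7 and 58.2 CPM in CCI 1 to 3, against 28.6 and 30.7 CPM in SHAM 1 and 2 (0.98, SE 0.38, adjusted p = 0.303), and is named after its values were seen.

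**Figure D5:**
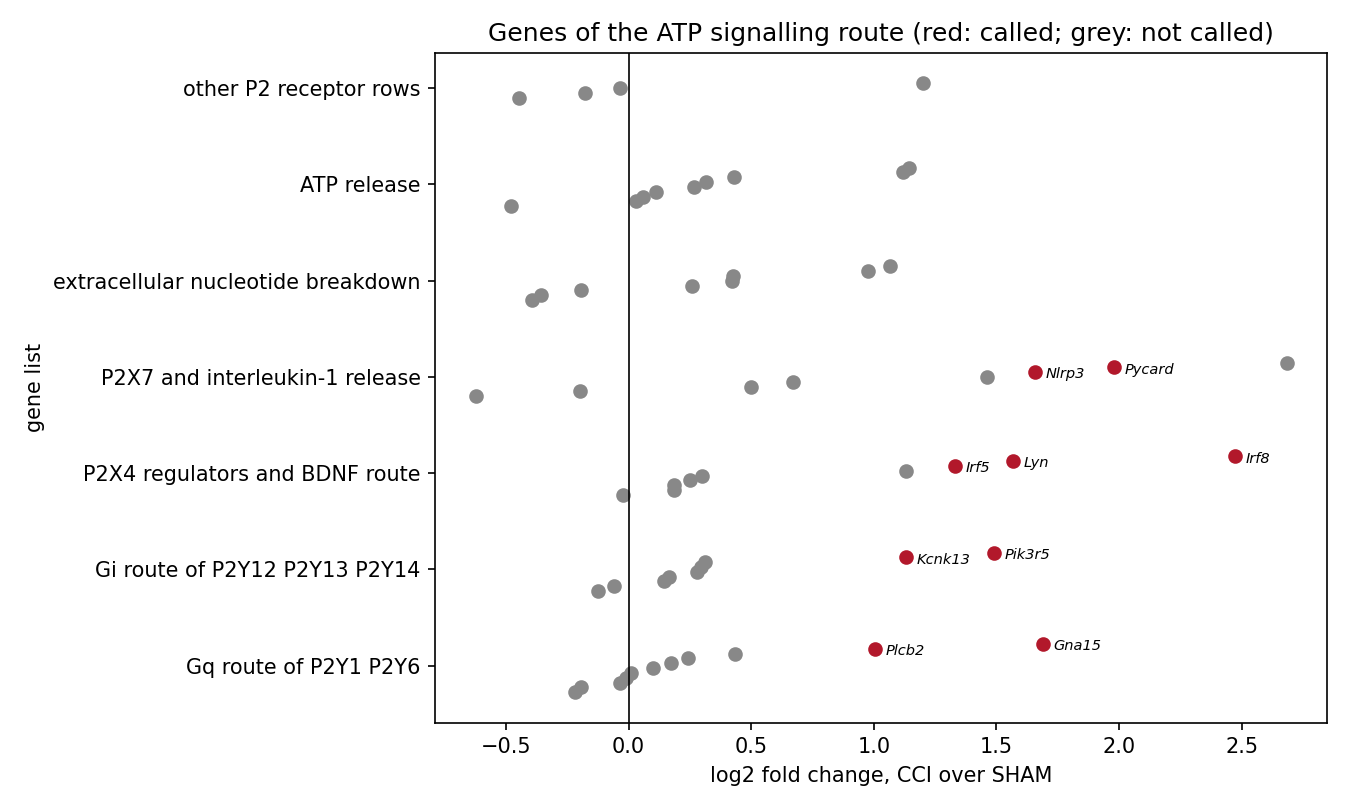
Log2 fold change of CCI over SHAM for each tested gene of the 7 lists around the receptors, 1 point per gene, red with the gene's name where it was called and grey where it was not. The 9 called genes all lie to the right of 0, from Plcb2 at 1.0 to Irf8 at 2.47, and the lists of other P2 rows, ATP release and nucleotide breakdown hold no called gene.

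By distance between profiles, the genes most like P2ry6 over the 5 libraries were Lrg1, a secreted glycoprotein, Fes, a tyrosine kinase of myeloid cells, and Spi1. Their root mean square distances of centred log2 CPM were 0.0818, 0.105 and 0.109 among 12750 genes. Among those most like P2rx4 were Slc1a6, a neuronal glutamate transporter, and Tnfrsf4, a receptor of activated T cells, at 0.0345 and 0.0422. Slc1a6 stood at 5.97, 7.15 and 4.93 CPM in CCI 1 to 3, against 5.0 and 7.25 CPM in SHAM 1 and 2. The names are given as a description of these 5 libraries.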

How the data were processed

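The treatment label gave the groups (3 CCI, 2 SHAM), and library numbers follow accession order. The deposited estimated counts are per gene symbol, and the submitters' processing notes name kallisto 0.44.0 and rn6. A second table of the authors, named TPM and by the series' design text scaled with trimmed means, was read as a signal, since column totals differ between libraries. The gene annotation is not given in the sources used here. Estimated counts were rounded, filtered with filterByExpr (minimum count 10) and scaled by TMM. The two-sided quasi-likelihood test of edgeR 4.0.16 (R 4.3.3, robust glmQLFit) ran on 13478 genes, with p-values adjusted over all of them by Benjamini-Hochberg, and the thresholds are those the series states. Unless another tool is named, adjusted p-values in the text are from this test. SE is the log2 fold change over the root of F. Counts not whole within 1e-06 were called fractional.

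The receptors, lists and tests were chosen with earlier results of these data known. Names were given to all receptors and family rows, to called list members (up to 4 by p, or the 2 smallest p where none was called), to up to 3 markers per list and to the 3 nearest profiles; the other markers, Spi1, Ssrp1 and list members named beyond these were picked afterwards. The test was checked on simulated data. It called 32.8% of simulated 1.5-fold changes, 76.1% of 2-fold and 97.0% of 4-fold changes, and 15 unchanged genes. Changes near 1.5-fold were thus mostly missed there. Alternatives used limma 3.58.1, DESeq2 1.42.0, other scalings and filters, the deposited TPM with pseudocounts of 0.5 and 0.1, and fewer libraries. GRCr8 tables from RefSeq gave neighbours and sequences. The files have no depth beyond these counts, and their number limits precision. Some genes that the rule names are not reported here.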

Additional observations from a re-analysis of the deposited data

How the results depend on the processing

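The direction of P2ry6, P2ry12 and P2ry13 was the same in all 15 alternatives (log2 fold changes of 1.52 to 1.78, 0.97 to 1.08 and 0.93 to 1.01), and 13, 13 and 10 of them kept the call. With either SHAM library left out no receptor was called, which leaves 1 SHAM library assumed to vary like the CCI libraries. P2ry13 also lost its call with CCI 2 and CCI 3 both left out (0.95, adjusted p = 0.0718), an alternative chosen after seeing the data. Leaving out 1 library at a time gave 0 to 3 receptors called higher and 0 to 1 lower, and 61 to 644 genes called higher and 0 to 119 lower among all tested, where the 5 libraries gave 349 and 35. The likelihood ratio test called 571 higher and 75 lower, DESeq2 545 and 69, and each called 1 receptor lower (P2rx6). With the Schwann cell level as a covariate 166 genes were higher and 0 lower. The cause of these shifts was not tested. No paired analysis was possible because the labels give no replicate numbers shared by the groups. Receptors under 100 counts in a library (P2rx2, P2ry13 and P2ry14) carry the most counting error.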

Other observations

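P2ry12, P2ry13 and P2ry14 lie within the span of Med12l, a mediator subunit gene, in the GRCr8 gene table. Med12l stood at 62.0, 53.9 and 74.6 CPM in CCI 1 to 3, against 67.0 and 62.0 CPM in SHAM 1 and 2 (log2 fold change -0.02, SE 0.14, adjusted p = 0.951), so the host gene overlapped between the groups where P2ry12 and P2ry13 did not. Gpr171, a receptor gene on the other side of P2ry14, was 3.42, 5.28 and 5.67 CPM in CCI, against 2.95 and 2.55 CPM in SHAM (0.80, SE 0.29, adjusted p = 0.212). Igsf10, beyond P2ry12, was 20.3, 25.9 and 28.8 CPM in CCI, against 18.7 and 19.3 CPM in SHAM (0.39, adjusted p = 0.269). Neither Gpr171 nor Igsf10 was called in the fit of all 5 libraries. These neighbours were named after the receptors' values had been seen.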
